A study of Bos taurus with 6 samples.

Results

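The genes described here encode the enzymes that convert drugs, dietary compounds, steroids, sterols, retinoids and aldehydes. They were chosen by symbol from the deposited table of read counts. The choice took the cytochromes P450 (CYP), the UDP-glucuronosyltransferases (UGT), the glutathione S-transferases (GST), the sulfotransferases (SULT), the alcohol dehydrogenases (ADH) and the aldehyde dehydrogenases (ALDH). It also took the aldo-keto reductases (AKR, with 20ALPHA-HSD), the flavin monooxygenases (FMO), the carboxylesterases (CES) and the hydroxysteroid dehydrogenases (HSD). In all, 116 of the 14179 symbols in the table matched, and 95 passed the filter on low counts and were tested. The rule used symbols only, but it was set with earlier results of these data known. The remaining 21 were not tested, and 3 of them, CYP21, GSTA5 and UGT1A6, had no read in any library. RefSeq lists CYP21 as a synonym of CYP21A2, which is also among the 116. Poly(A) RNA had been sequenced from rumen, liver and forebrain of wild-type Holstein cattle fetuses of 90 days, with a crown-rump length of 13 to 16 cm, collected at a slaughterhouse. Each tissue had 2 libraries, all labelled male. The fetuses were 2 males and 2 females from separate cows, so the 6 male libraries come from at most 2 fetuses, and which fetus gave which library is not stated in the labels.

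Detoxification is usually described as a sequence of steps. P450 and flavin enzymes add or expose a reactive group, alcohol and aldehyde dehydrogenases and carbonyl reductases change its oxidation state, and transferases attach glutathione, glucuronic acid or sulfate so that carriers can export the product. The same families make and break down signals: P450 and hydroxysteroid enzymes handle steroid hormones, bile acids and vitamin D, and aldehyde dehydrogenases make retinoic acid. The adult liver is the main site of these reactions, the rumen wall is a stratified epithelium on smooth muscle, and brain cells depend on P450 enzymes to make and remove cholesterol.

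Total counts were 12910828 and 11936981 in rumen, 16550273 and 18528958 in liver, and 10271024 and 12295634 in forebrain. Markers of each tissue were highest where the label places them. The summed level of 6 listed rumen epithelium genes was 13247 and 10644 CPM (read counts scaled to a common library size) in rumen, against at most 9.63 CPM in any other library. Of 10 listed hepatocyte genes, 9 were in the table, and they summed to 222224 and 192033 CPM in liver, against 79.1 and 71.1 CPM in rumen and 103 and 136 CPM in forebrain. The 5 neuronal genes summed to 11128 and 10704 CPM in forebrain. The liver libraries stood apart from each other: erythroid genes summed to 118275 CPM in Liver 1 and 42940 CPM in Liver 2, and macrophage genes to 675 and 306 CPM. In bulk tissue, fewer cells of a type and less RNA per cell cannot be told apart. CPM here are counts over the total after trimmed-mean scaling. They are not divided by transcript length, so levels are compared between tissues and never between genes.

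Of the members, 94 had a read in rumen, 105 in liver and 85 in forebrain, and most of those that differed between liver and another tissue were higher in liver. With edgeR's quasi-likelihood test and an adjusted p under 0.05, 44 members differed between rumen and liver, 13 higher and 31 lower in rumen, where 40.3% of the 11478 tested genes were called (20.1% higher, 20.3% lower). Between rumen and forebrain 49 members differed, 35 higher and 14 lower in rumen, against 39.3% of all genes (19.5% higher, 19.9% lower). Between liver and forebrain 69 differed, 55 higher and 14 lower in liver, against 55.3% of all genes (29.4% higher, 25.9% lower). The median log2 fold change of the tested members was -0.54, 1.01 and 2.16 in these comparisons, and that of all tested genes was -0.06, -0.01 and 0.14. The comparisons share libraries and are not independent. With libraries scaled by their totals alone, which moves the median of all genes by 0.29, -0.15 and -0.48, the rumen and liver comparison had 20 members higher and 28 lower in rumen. That scaling turned the balance over all genes to 2979 higher and 1785 lower in rumen against liver, and to 2560 higher and 3946 lower in liver against forebrain. The libraries of the compared tissues did not overlap for any member called. Called or not, they did not overlap for 75, 73 and 83 of the 95 tested members in these comparisons. The same count was not made over all tested genes, so these numbers show nothing particular to the members. P-values measure the spread between these libraries. Some of the libraries must share a fetus, but the fit treated them all as independent. In refits that left out each library in turn, many of these calls were lost in some refit. Most calls described singly below that did not hold are followed by their adjusted p without the libraries concerned. Calls that enter only a count or the list of enriched members are not all followed in this way. Shares over all tested genes given beside the members are those of the fit to all 6 libraries, not of the refits.

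**Figure D1:**
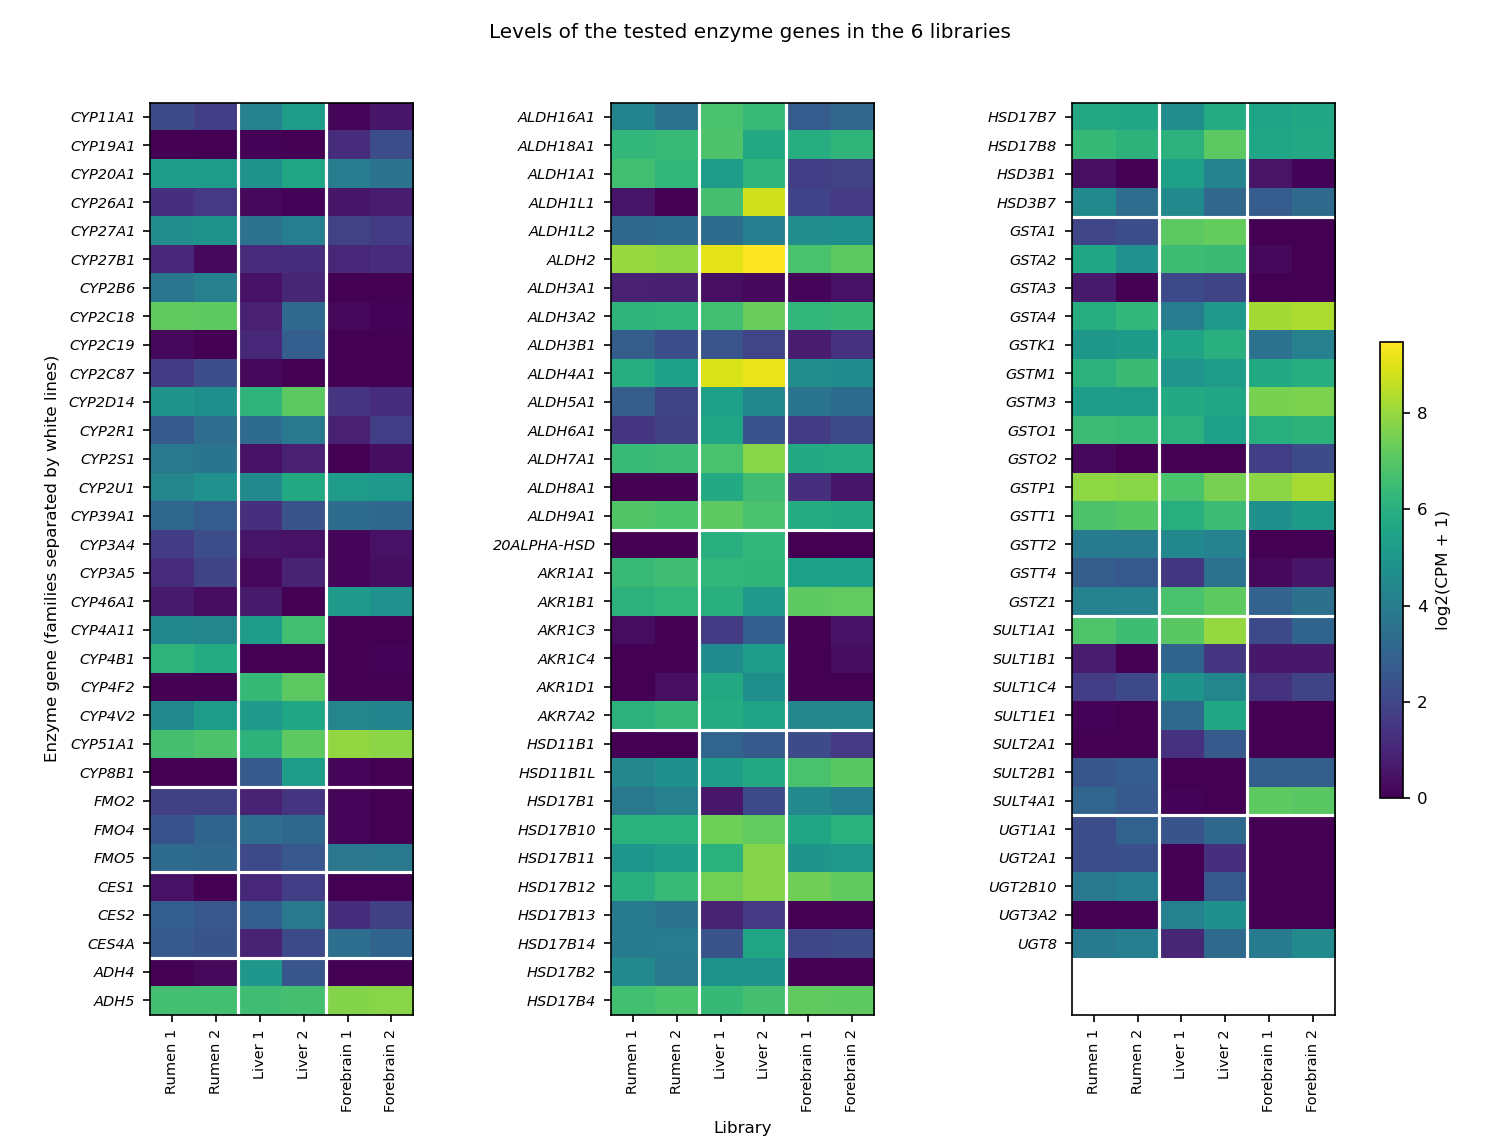
Levels of 94 of the 95 tested enzyme genes as log2(CPM + 1), 1 row a gene and 1 column a library, with rumen, liver and forebrain from left to right and families separated by white lines. Bright cells in the Liver columns alone mark genes such as CYP4F2, ALDH8A1 and GSTA1, and bright cells in the Rumen columns alone mark CYP2C18 and CYP4B1.

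A member was taken as enriched in a tissue when it was called higher there than in both others, each by a log2 fold change of at least 2. Liver had 23 enriched members, against 9.01% of all tested genes. Rumen had 7, CYP2B6, CYP2C18, CYP2C87, CYP2S1, CYP3A4, CYP4B1 and HSD17B13, against 3.76% of all genes. Forebrain had 5, CYP19A1, CYP46A1, GSTA4, GSTO2 and SULT4A1, against 8.22%. By detection, 69 members had a read in all 3 tissues, 18 in rumen and liver, 9 in liver and forebrain, and 6 in rumen and forebrain. Reads in a single tissue came from 9 members in liver, from CYP11B1 in rumen (1 count in Rumen 2) and from CYP21A2 in forebrain (5 counts). Some of the 9 had few reads, such as AKR1B10 with 7 counts and CYP17A1 with 8. CYP24A1 and CYP2E1 had reads in 1 liver library each. Detection also depends on depth, and the liver libraries had the highest total counts. Per library, 11346 and 11048 of all symbols had a count in rumen, 11601 and 11336 in liver, and 11748 and 11693 in forebrain.

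**Figure D2:**
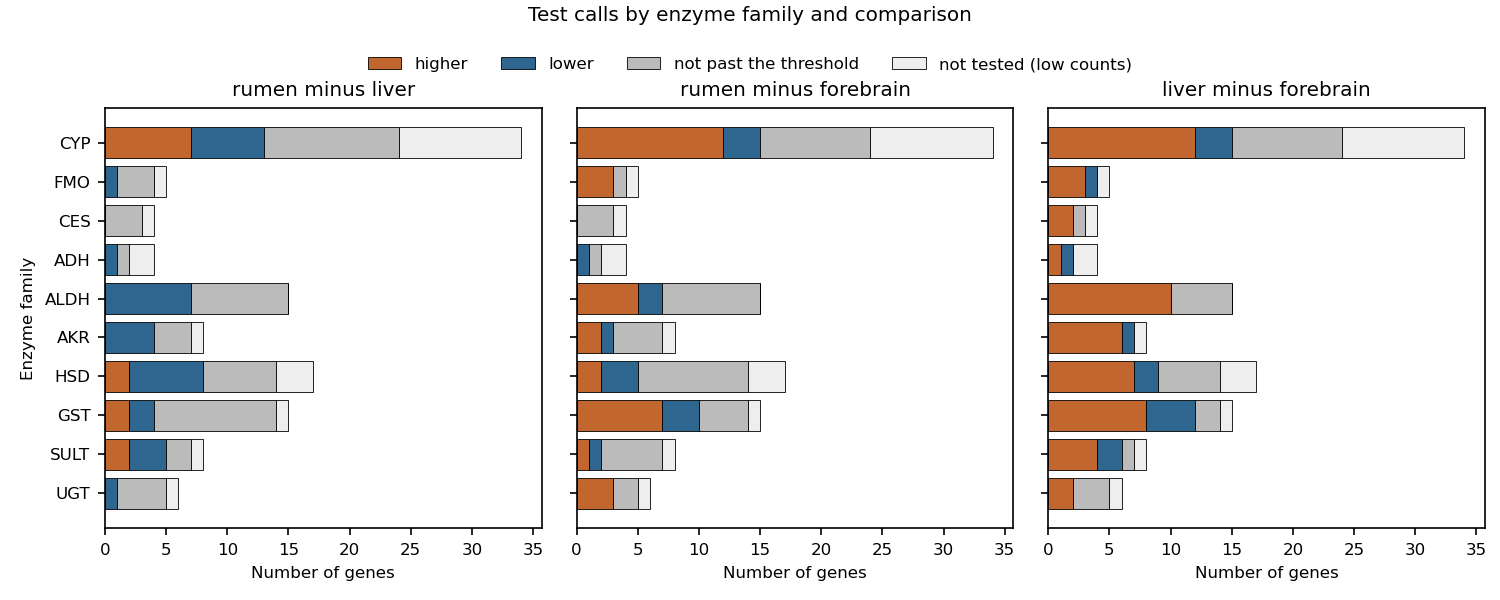
Number of genes of each enzyme family that were higher, lower, not past an adjusted p of 0.05, or not tested for low counts, in the comparison named above each panel (first tissue minus second). ALDH shows 7 lower and none higher in rumen against liver, whereas CYP shows 7 higher and 6 lower. In that comparison 20.1% of all tested genes were higher and 20.3% lower.

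Of 9 tested P450 enzymes without a hormone, sterol, vitamin or fatty acid role, 5 were higher and 2 lower in rumen than in liver, and 1 of these calls, that of CYP2C18, held without each library in turn. Over all tested genes, 20.1% were higher and 20.3% lower in rumen than in liver. CYP2C18 had 143 and 141 CPM in rumen, against 0.819 and 8.41 CPM in liver and 0.163 and 0.0722 CPM in forebrain. The rumen libraries lay far above all others, by a log2 fold change of 4.93 ± 0.92 (SE) against liver, with an adjusted p of 0.00721. Against forebrain, with 3 counts in its libraries together, the pooled ratio was 1238, with an exact 95% interval of 423 to 6004 that covers counting error only. RefSeq lists this symbol as a synonym of bovine CYP2C90, so its role is not taken from human CYP2C18. CYP2B6, a drug and steroid hydroxylase in humans, had 12.1 and 16.5 CPM in rumen, against 0.372 and 1.03 CPM in liver and none in forebrain. CYP2S1, an epithelial P450 in humans, had 13.2 and 11.5 CPM in rumen, against 0.372 and 0.835 CPM in liver and 0 and 0.289 CPM in forebrain. Both were 20.0-fold higher in rumen than in liver (log2 4.32, SE 0.76 and 0.96, adjusted p 0.00861 and 0.0139). CYP2C87 had 2.07 and 3.75 CPM in rumen, against 0.149 and 0 CPM in liver and no count in forebrain. CYP3A4, matched by RefSeq to CYP3A28 as a synonym, had 2.22 and 3.75 CPM in rumen, against 0.447 and 0.385 CPM in liver. The difference from liver had an adjusted p of 0.0499 for CYP3A4 and 0.0312 for CYP2C87. The losses listed next concern liver only, and not all calls of these genes against forebrain held in every refit. Calls against liver were lost for CYP2B6 without Rumen 2 (adjusted p 0.0617), for CYP2S1 without either rumen library (0.0651 and 0.0757), for CYP2C87 without a rumen or a forebrain library (0.0745 to 0.148) and for CYP3A4 without any one library (0.0783 to 0.220).

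Other P450 enzymes were higher in liver or found there alone. CYP4F2, which RefSeq lists as a synonym of an unnamed locus, had 79.8 and 135 CPM in liver and no count in rumen or forebrain. It was at least 946-fold lower in rumen than in liver and at least 956-fold higher in liver than in forebrain, where a tissue without counts is set to a floor of 3 counts over its libraries. CYP2D14, a bovine member of the drug-oxidising CYP2D group, had 28.7 and 25.4 CPM in rumen, 71.5 and 135 CPM in liver and 1.79 and 1.37 CPM in forebrain. Rumen was lower than liver by a log2 of 1.93 ± 0.36 (adjusted p 0.00703), a call lost without either rumen library (0.056 and 0.0696). Both were above forebrain, by log2 fold changes of 4.09 ± 0.42 and 6.03 ± 0.45 (adjusted p 0.000848 and 0.000138). CYP2C19, a synonym of CYP2C89, had 0.153 and 0 CPM in rumen, 1.12 and 6.17 CPM in liver and none in forebrain. Its liver libraries differ several-fold, and the call against rumen (0.0429) was lost without any library but Liver 1 (0.0795 to 0.183). CYP2E1, the ethanol-inducible P450, was too low to test, at 2.06 CPM in Liver 2 and no count elsewhere. Of the other P450 enzymes without a hormone or sterol role, CYP1B1 was also untested, with at most 0.765 CPM, and CYP3A5, a symbol RefSeq lists under the same gene as CYP3A4, passed in no comparison. CYP20A1, an orphan P450, was 2.84-fold higher in rumen and 2.80-fold higher in liver than in forebrain, calls lost without a rumen or forebrain library (0.0674 to 0.119).

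**Figure D3:**
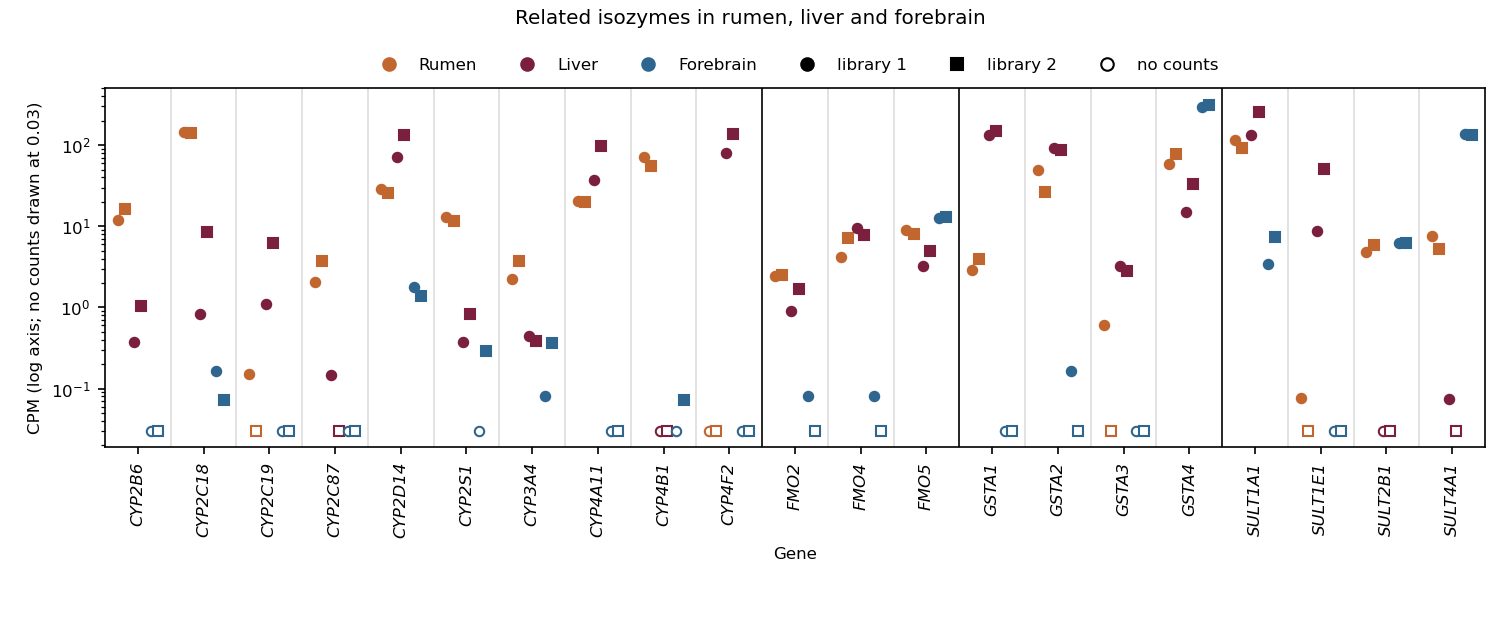
CPM on a log axis for related isozymes in rumen, liver and forebrain, with circles for library 1, squares for library 2 and open symbols drawn at 0.03 for no counts. CYP2C18 and CYP4B1 are highest in rumen, CYP4F2 and GSTA1 in liver, and GSTA4 and SULT4A1 in forebrain.

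Among the fatty acid oxidising enzymes, CYP4B1 had 70.9 and 55.4 CPM in rumen, none in liver, and 0 and 0.0722 CPM in forebrain. It was at least 612-fold higher in rumen than in liver, and 1654-fold higher than in forebrain as a pooled ratio on 1 count (95% interval 296 to 65379). CYP4A11, a fatty acid omega-hydroxylase, had 20.3 and 19.7 CPM in rumen and 37.2 and 96.9 CPM in liver, with no count in forebrain. It was at least 174-fold higher in rumen and at least 604-fold higher in liver than in forebrain, whereas its lower level in rumen than in liver (adjusted p 0.04) was lost without a rumen or a forebrain library (0.0576 to 0.192). The neighbouring CYP4A22 stayed at or below 0.744 CPM and was not tested. HSD17B13, a lipid droplet enzyme of the human liver, had 14.5 and 11.2 CPM in rumen, against 0.893 and 1.99 CPM in liver and none in forebrain. Rumen lay above liver by a log2 of 3.14 ± 0.69 (adjusted p 0.0174, lost without either rumen library at 0.0733 and 0.103). HSD17B11, a related enzyme that also sits on lipid droplets, had 30.3 and 37.7 CPM in rumen, 66.0 and 215 CPM in liver, and 28.7 and 34.4 CPM in forebrain, and liver was above both (adjusted p 0.0244 and 0.015). HSD17B10, a mitochondrial fatty acid and amino acid enzyme, was 2.42-fold lower in rumen than in liver and 2.81-fold higher in liver than in forebrain. HSD17B12, which elongates fatty acids, was lower in rumen than in liver and in forebrain (2.75-fold and 2.23-fold). CYP4V2, a fatty acid hydroxylase of the eye in humans, was 2.18-fold higher in liver than in forebrain (adjusted p 0.0325, lost without a forebrain library at 0.147 and 0.158). The peroxisomal HSD17B4, the fatty aldehyde dehydrogenase ALDH3A2 and the P450 CYP2U1 passed in no comparison. Refits without a library lost the HSD17B11 calls (without a rumen or forebrain library, 0.0537 to 0.143), the HSD17B10 call against liver without a rumen library (0.0712 and 0.0759) and the HSD17B12 calls against liver without Rumen 1 (0.0653) and against forebrain without a rumen or forebrain library (0.0555 to 0.119).

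Flavin monooxygenases oxidise nitrogen and sulfur in drugs and dietary amines. FMO4 had 4.21 and 7.26 CPM in rumen and 9.45 and 7.90 CPM in liver, against 0.0813 and 0 CPM in forebrain, and FMO2 had 2.45 and 2.50 CPM in rumen, 0.893 and 1.67 CPM in liver and 0.0813 and 0 CPM in forebrain. FMO5 ran the other way: 8.88 and 8.04 CPM in rumen, 3.28 and 4.95 CPM in liver and 12.6 and 13.0 CPM in forebrain. Liver was below forebrain by a log2 of 1.63 ± 0.45 (adjusted p 0.0207, lost without a forebrain library at 0.105 and 0.117). FMO1, next to these genes on the chromosome, had at most 1.33 CPM and was not tested. Among the carboxylesterases, CES2, an intestinal drug hydrolase in humans, had 6.20 and 4.99 CPM in rumen, 6.18 and 13.0 CPM in liver and 1.38 and 2.45 CPM in forebrain. CES1 had 0.383 and 0 CPM in rumen, 1.12 and 2.31 CPM in liver and no count in forebrain, and CES4A passed in no comparison. The liver and forebrain calls for CES1 (0.0305) and CES2 (0.0205) were lost without a forebrain library (0.0725 to 0.163). CES5A was not tested.

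Alcohol dehydrogenase genes lie side by side on the chromosome and behaved differently. ADH4, an ethanol and retinol oxidising enzyme of the liver, had 0 and 0.156 CPM in rumen, 30.4 and 4.75 CPM in liver and none in forebrain. The 2 liver libraries differed more than 6-fold, and the pooled ratio of liver to rumen was 215 (95% interval 59.2 to 1781, adjusted p 0.0132, lost without a rumen library at 0.0614 and 0.0824). ADH5, the glutathione-dependent formaldehyde dehydrogenase, was near 100 CPM in rumen (100.1 and 99.5) and liver (93.4 and 103) and reached 211 and 219 CPM in forebrain. It was 2.16-fold lower in rumen and 2.19-fold lower in liver than in forebrain, the call in rumen being lost without a rumen or a forebrain library (0.0634 to 0.0769). ADH1C and ADH6 had less than 1 CPM in every library and were not tested.

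Aldehyde dehydrogenases were largely higher in liver. Of 15 tested, 7 were lower in rumen than in liver and none higher, and 10 were higher in liver than in forebrain and none lower, of which 4 and 6 held without each library in turn. Over all tested genes, 20.3% were lower in rumen than in liver and 29.4% were higher in liver than in forebrain. The summed level of the aldehyde dehydrogenases was 809 and 744 CPM in rumen, 1889 and 2568 CPM in liver and 428 and 479 CPM in forebrain. ALDH4A1, of proline catabolism, had 58.3 and 42.5 CPM in rumen, 494 and 578 CPM in liver and 24.6 and 23.0 CPM in forebrain. Its libraries did not overlap between any 2 tissues, and liver was 10.6-fold above rumen (log2 -3.41 ± 0.26 for rumen minus liver, adjusted p 0.000336) and 22.6-fold above forebrain. ALDH1L1, which oxidises a folate in the cytosol, had 0.459 and 0 CPM in rumen, 102 and 442 CPM in liver and 2.76 and 1.95 CPM in forebrain. Its mitochondrial relative ALDH1L2 had 8.26 and 8.97 CPM in rumen, 9.08 and 16.0 CPM in liver and 24.6 and 25.2 CPM in forebrain, and was lower in rumen than in forebrain (adjusted p 0.0239, lost without a rumen or a forebrain library at 0.12 to 0.141). ALDH2, the mitochondrial acetaldehyde dehydrogenase, had 261 and 237 CPM in rumen, 539 and 714 CPM in liver and 107 and 139 CPM in forebrain. ALDH16A1, a poorly characterised member, was 6.41-fold lower in rumen than in liver (adjusted p 0.00185). ALDH5A1, which degrades the transmitter GABA's aldehyde product, had 5.89 and 2.81 CPM in rumen, 39.5 and 20.7 CPM in liver and 11.6 and 9.24 CPM in forebrain. ALDH6A1, of valine catabolism, had 1.84 and 2.50 CPM in rumen, 46.4 and 4.24 CPM in liver and 2.20 and 3.46 CPM in forebrain, and its liver calls (0.0409 and 0.0428) were lost without any library but Liver 2, at 0.0753 to 0.488 and at 0.273 and 0.488 without Liver 1. ALDH7A1, of lysine catabolism, and ALDH9A1, of carnitine and amine metabolism, were higher in liver than in forebrain (2.92-fold and 2.25-fold, lost without a forebrain library at 0.0503 to 0.0808). The calls of lower level in rumen than in liver were lost for ALDH2 without either rumen library (0.0635 and 0.0851) and for ALDH5A1 without Rumen 2 (0.0614). ALDH18A1, of proline synthesis, ALDH3A1, a corneal enzyme, and ALDH3B1 passed in no comparison.

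Retinoic acid is made from retinaldehyde by ALDH1A enzymes and broken down by CYP26 enzymes. ALDH1A1 had 97.8 and 77.2 CPM in rumen, 36.9 and 71.5 CPM in liver and 2.36 and 2.60 CPM in forebrain. Rumen and liver were 35.1-fold and 21.8-fold above forebrain (adjusted p 0.000484 and 0.000322), and rumen and liver did not differ past the threshold. ALDH8A1, which oxidises retinaldehyde and tryptophan metabolites, had no count in rumen, 54.0 and 95.1 CPM in liver and 1.46 and 0.433 CPM in forebrain. Its level in rumen was at least 656-fold lower than in liver. Of the catabolic enzymes, CYP26A1 had 1.45 and 1.95 CPM in rumen, 0.149 and 0.0642 CPM in liver and 0.488 and 0.650 CPM in forebrain. The rumen call against liver (adjusted p 0.0206) was lost without any library but Liver 1 (0.0733 to 0.105). CYP26B1 was not tested, with 0 and 0.078 CPM in rumen, none in liver and 1.38 and 0.433 CPM in forebrain. Of 14 listed genes of retinoid handling, 12 were in the table and 10 were tested, and 5 were higher and 3 lower in rumen than in liver, of which 2 and 1 held without each library in turn. Those higher were DHRS3, which returns retinaldehyde to retinol, the binding proteins CRABP1 and CRABP2, and the receptors RARA and RARG. RARG had 89.8 and 69.4 CPM in rumen, 5.28 and 3.60 CPM in liver and 2.36 and 3.25 CPM in forebrain. Those lower were RDH10, LRAT and the plasma carrier RBP4, which had 88.1 and 65.9 CPM in rumen and 2183 and 1365 CPM in liver. Over all tested genes, 20.1% were higher and 20.3% lower in rumen than in liver. For the listed genes of retinoid handling, only the number of calls that held is given.

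**Figure D4:**
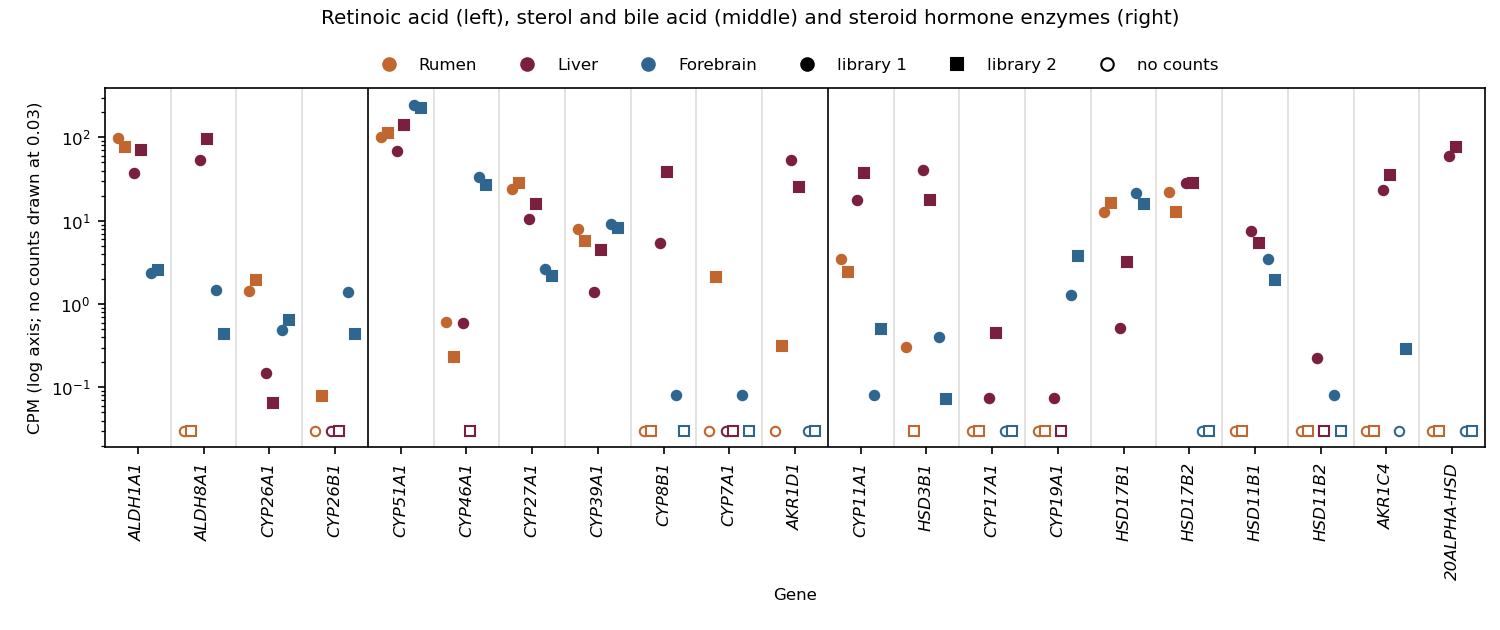
CPM on a log axis for enzymes of retinoic acid, of sterols and bile acids, and of steroid hormones, in rumen, liver and forebrain, with circles for library 1, squares for library 2 and open symbols drawn at 0.03 for no counts. CYP46A1 and CYP51A1 are highest in forebrain, CYP8B1, AKR1D1 and HSD3B1 in liver, and CYP7A1 has counts in Rumen 2 and Forebrain 1 only.

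Of 8 tested sterol and bile acid enzymes, 2 were lower in rumen than in liver, 1 was higher and 2 lower in rumen than in forebrain, and 3 were higher and 2 lower in liver than in forebrain. Over all tested genes, 20.3% were lower in rumen than in liver. The shares higher and lower were 19.5% and 19.9% for rumen against forebrain, and 29.4% and 25.9% for liver against forebrain. CYP51A1, of cholesterol synthesis, had 101 and 114 CPM in rumen, 69.6 and 140 CPM in liver and 248 and 227 CPM in forebrain, and was lower in rumen and liver than in forebrain (2.22-fold and 2.26-fold). CYP46A1, which removes cholesterol from brain cells, had 0.612 and 0.234 CPM in rumen, 0.595 and 0 CPM in liver and 33.7 and 26.8 CPM in forebrain. Rumen and liver were 69.8-fold and 103-fold below forebrain (adjusted p 0.00665 and 0.00348). CYP27A1, which oxidises the sterol side chain, had 24.1 and 28.2 CPM in rumen, 10.6 and 15.7 CPM in liver and 2.60 and 2.17 CPM in forebrain. CYP39A1 and HSD3B7, of bile acid synthesis, and HSD17B7, of cholesterol synthesis, passed in no comparison. CYP8B1, which sets the cholic acid share of bile acids, had no count in rumen, 5.36 and 38.1 CPM in liver and 0.0813 and 0 CPM in forebrain. AKR1D1, a bile acid and steroid reductase, had 0 and 0.312 CPM in rumen, 53.0 and 25.1 CPM in liver and none in forebrain. CYP7A1, the rate-limiting enzyme of bile acid synthesis in adult liver, was not tested, with 0 and 2.11 CPM in rumen, none in liver and 0.0813 and 0 CPM in forebrain. Leaving out any rumen or forebrain library lost the CYP51A1 calls (0.0607 to 0.199). The CYP46A1 call in rumen was lost without Rumen 1, Rumen 2 or Forebrain 1 (0.0503 to 0.0667) and the CYP8B1 call against forebrain without Forebrain 2 (0.0507).

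Of 3 vitamin D enzymes, 2 were tested. CYP2R1, a vitamin D hydroxylase, had 5.2 and 9.52 CPM in rumen, 8.86 and 13.4 CPM in liver and 0.813 and 2.38 CPM in forebrain, and was above forebrain in both (4.56-fold and 6.89-fold). CYP27B1, which makes the active hormone, stayed between 0.156 and 1.35 CPM in all libraries and passed in no comparison. CYP24A1, which degrades it, was not tested: Liver 1 had 4.54 CPM and the other libraries none. The CYP2R1 call in rumen was lost without any rumen or forebrain library (0.07 to 0.225) and that in liver without Forebrain 1 (0.0948).

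Of 15 tested steroid hormone enzymes, 10 were lower and 1 higher in rumen than in liver, of which 4 and 0 held without each library in turn. Between liver and forebrain 11 were higher and 3 lower in liver, of which 6 and 0 held, where 29.4% and 25.9% of all genes were called. For rumen against liver, 20.3% of all genes were lower and 20.1% higher. CYP11A1, which cleaves cholesterol to pregnenolone, had 3.44 and 2.42 CPM in rumen, 17.6 and 37.1 CPM in liver and 0.0813 and 0.505 CPM in forebrain. HSD3B1, the next step to progesterone, had 0.306 and 0 CPM in rumen, 40.9 and 17.8 CPM in liver and 0.407 and 0.0722 CPM in forebrain. Both were above forebrain in liver, 88.2-fold and 121-fold (adjusted p 0.00123 and 0.00283), and below liver in rumen. The 6 listed markers of adrenal or gonadal cells summed to 25 and 33.2 CPM in rumen, 34.1 and 62.7 CPM in liver and 25.1 and 24.0 CPM in forebrain. That list holds CYP11A1, CYP17A1 and CYP21A2 themselves. The 3 markers that are not among the enzymes, NR5A1, STAR and MC2R, summed to 21.6 and 30.7 CPM in rumen, 16.5 and 25.2 CPM in liver and 24.8 and 23.4 CPM in forebrain. Among them the steroidogenic regulator NR5A1 had 10.9 and 3.28 CPM in liver and no count in rumen or forebrain, and the corticotropin receptor MC2R had 0.595 and 1.35 CPM in liver. The cholesterol transporter STAR had 21.6 and 30.7 CPM in rumen, 4.91 and 20.6 CPM in liver and 24.8 and 23.4 CPM in forebrain. CYP17A1, needed for cortisol and androgens, had at most 0.450 CPM and was not tested. CYP21A2 had no count in liver. The part of such cells in these levels was not tested.

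The remaining steroid enzymes differed in where they were highest. 20ALPHA-HSD, which reduces progesterone, had 60.2 and 75.9 CPM in liver and no count elsewhere, at least 592-fold lower in rumen than in liver. AKR1C4, a hepatic steroid reductase, had no count in rumen, 23.4 and 35.6 CPM in liver and 0 and 0.289 CPM in forebrain. SULT1E1, the estrogen sulfotransferase, had 0.0765 and 0 CPM in rumen, 8.71 and 50.5 CPM in liver and none in forebrain, the call of rumen under liver (0.00614) being lost without Rumen 2 (0.0558). SULT2A1, which sulfates DHEA and bile acids, had 1.56 and 5.2 CPM in liver and none elsewhere. HSD11B1, which regenerates cortisol, had no count in rumen, 7.52 and 5.39 CPM in liver and 3.5 and 1.95 CPM in forebrain. Rumen lay at least 55.0-fold below liver and at least 23.1-fold below forebrain. HSD11B2, which inactivates it, was not tested, nor were HSD17B3, the testicular androgen enzyme, and HSD17B6. HSD11B1L, a relative of HSD11B1, had 20.0 and 25.8 CPM in rumen, 37.6 and 53.6 CPM in liver and 106 and 132 CPM in forebrain, 5.19-fold lower in rumen than in forebrain (adjusted p 0.0017). HSD17B1, which makes estradiol, had 12.9 and 16.3 CPM in rumen, 0.521 and 3.21 CPM in liver and 21.3 and 15.9 CPM in forebrain. HSD17B2, which inactivates estradiol, had 22.0 and 12.9 CPM in rumen, 28.3 and 28.0 CPM in liver and none in forebrain. HSD17B8 was 2.06-fold higher in liver than in forebrain (adjusted p 0.0427, lost without any library but Liver 1 at 0.0569 to 0.201). The aromatase CYP19A1 had 1.30 and 3.75 CPM in forebrain and 1 count in all rumen and liver libraries together. The AKR1C3 calls in liver (0.0458 and 0.0462) were lost without any library but Liver 1 (0.0545 to 0.217), the SULT2A1 calls without a rumen or forebrain library (0.0863 to 0.0953), and the CYP19A1 calls without a rumen or forebrain library (0.0854 to 0.218). Without a rumen or forebrain library the HSD17B1 call of rumen over liver was lost (0.0576 to 0.108), and without a rumen library the CYP11A1 call of rumen under liver (0.0752 and 0.102).

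The other carbonyl reductases tested passed in no comparison of rumen with liver, and AKR1B10 was not tested. AKR1A1, an aldehyde reductase, had 81.7 and 93.5 CPM in rumen, 74.2 and 72.0 CPM in liver and 41.1 and 40.0 CPM in forebrain. AKR7A2, a succinic semialdehyde and aflatoxin aldehyde reductase, was 3.69-fold higher in rumen and 2.62-fold higher in liver than in forebrain (adjusted p 0.00214 and 0.00398). AKR1B1, the glucose to sorbitol reductase, had 66.9 and 73.7 CPM in rumen, 60.1 and 33.9 CPM in liver and 139 and 146 CPM in forebrain, the lower level in rumen (0.0388) being lost without a rumen or a forebrain library (0.162 to 0.195). The AKR1A1 calls above forebrain, 2.16-fold and 1.80-fold, were lost without a forebrain library or, in rumen, Rumen 2 (0.0707 to 0.118).

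Glutathione S-transferases of the alpha class, which lie in 1 chromosomal cluster, differed by isozyme. GSTA1 had 2.91 and 3.90 CPM in rumen, 134 and 150 CPM in liver and none in forebrain, and rumen was 41.6-fold below liver (log2 -5.38 ± 0.32, adjusted p 0.000328). GSTA2 had 49.1 and 26.7 CPM in rumen, 90.9 and 86.9 CPM in liver and 0.163 and 0 CPM in forebrain. GSTA4, which conjugates the lipid peroxidation product hydroxynonenal, ran the other way with 59.2 and 77.1 CPM in rumen, 15 and 32.8 CPM in liver and 296 and 317 CPM in forebrain. Liver was 12.8-fold below forebrain (adjusted p 0.000638), rumen was 4.49-fold below forebrain, and rumen was 2.85-fold above liver. GSTA3, a steroid isomerase in humans, had 0.612 and 0 CPM in rumen, 3.28 and 2.83 CPM in liver and none in forebrain. These genes have near-identical copies, and reads may be split among them. GSTM3 had 37.4 and 35.5 CPM in rumen, 54.6 and 46.9 CPM in liver and 189 and 192 CPM in forebrain, and GSTM1, a synonym of an unnamed locus in RefSeq, was 2.34-fold higher in rumen than in liver. GSTZ1, of tyrosine catabolism, had 16.9 and 17.3 CPM in rumen, 109 and 138 CPM in liver and 6.83 and 10.2 CPM in forebrain. GSTT2 had 14.2 and 14 CPM in rumen and 20.8 and 17.5 CPM in liver, with no count in forebrain, and GSTT1 was 3.94-fold higher in rumen and 2.49-fold higher in liver than in forebrain. GSTK1 and GSTT4 were also higher in rumen and liver than in forebrain (2.41-fold and 3.99-fold, 16.0-fold and 18.4-fold). GSTO2 was at 2.36 and 3.46 CPM in forebrain with 2 counts in rumen and none in liver. GSTP1, at 230 and 224 CPM in rumen, 111 and 183 CPM in liver and 225 and 303 CPM in forebrain, and GSTO1 passed in no comparison. Refits without a rumen or forebrain library lost the GSTA4 call against liver (0.0521 to 0.123) and against forebrain without Rumen 1 (0.0672), the GSTM1 call without Rumen 2 (0.0869) and the GSTO2 calls (0.0707 to 0.233). The GSTT1 call in liver was lost without Forebrain 1 (0.0872), those of GSTT4 without a rumen or forebrain library (0.0622 to 0.162) and that of GSTK1 in rumen likewise (0.0615 to 0.164).

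Genes of glutathione supply were mostly higher in liver. Of 12 listed genes of glutathione supply and use, 11 were tested: 7 were lower and 1 higher in rumen than in liver, and 9 were higher and 1 lower in liver than in forebrain. Of these, 4 of the 7 and 5 of the 9 held without each library in turn, and the 2 single calls did not. Over all tested genes, 20.3% were lower and 20.1% higher in rumen than in liver, and 29.4% were higher and 25.9% lower in liver than in forebrain. GCLC, the rate-limiting ligase subunit, had 0.765 and 0.234 CPM in rumen, 232 and 53.6 CPM in liver and 2.11 and 1.15 CPM in forebrain. GPX1 had 180 and 156 CPM in rumen, 2070 and 1855 CPM in liver and 106 and 133 CPM in forebrain. MGST2, a microsomal glutathione transferase, was the 1 higher in rumen, at 149 and 127 CPM, against 68.9 and 70.9 CPM in liver.

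Of 7 tested sulfotransferases, 2 were higher and 3 lower in rumen than in liver, and 4 were higher and 2 lower in liver than in forebrain. The shares of all tested genes were 20.1% and 20.3% in the first comparison and 29.4% and 25.9% in the second. SULT1A1, the main phenol sulfotransferase, had 115 and 91.9 CPM in rumen, 132 and 253 CPM in liver and 3.42 and 7.29 CPM in forebrain, 19.2-fold and 35.8-fold above forebrain (adjusted p 0.00142 and 0.000419). SULT4A1, a neuronal member with no known substrate, had 7.58 and 5.31 CPM in rumen, 0.0744 and 0 CPM in liver and 138 and 132 CPM in forebrain. Rumen was 20.9-fold below forebrain and, on 1 liver count, 187-fold above liver (95% interval 33.1 to 7436). SULT2B1, a cholesterol sulfotransferase of stratified epithelium, had 4.82 and 5.85 CPM in rumen, none in liver and 6.26 and 6.28 CPM in forebrain, at least 51.6-fold higher in rumen than in liver. SULT1C4 had 2.30 and 3.28 CPM in rumen, 29.1 and 19.3 CPM in liver and 1.54 and 2.89 CPM in forebrain, the call in rumen (0.00527) being lost without Rumen 1 (0.0523). SULT1B1 passed in no comparison and SULT1C3 was not tested. The sulfate donor enzyme PAPSS1 had 75.7 and 82.3 CPM in rumen, 41.5 and 32.9 CPM in liver and 191 and 182 CPM in forebrain.

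Among the glucuronosyltransferases, UGT1A1, the bilirubin enzyme, had 3.75 and 6.63 CPM in rumen and 4.47 and 7.90 CPM in liver, with no count in forebrain, at least 45.1-fold and 55.0-fold higher than there. UGT3A2 had no count in rumen or forebrain and 17 and 25.8 CPM in liver, at least 187-fold lower in rumen than in liver. UGT2B10 had 12.8 and 16.0 CPM in rumen, 0 and 5.07 CPM in liver and none in forebrain, and UGT2A1 3.67 and 3.98 CPM in rumen, 0 and 1.48 CPM in liver and none in forebrain. Their rumen calls against forebrain (0.0356 and 0.0436) were lost without any rumen or forebrain library (0.105 to 0.175), and neither differed from liver past the threshold. UGT8, the ceramide galactosyltransferase of myelin, passed in no comparison, at 14 and 16.2 CPM in rumen, 1.04 and 8.73 CPM in liver and 14.1 and 21.8 CPM in forebrain.

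Redox partners, sensors and carriers were read from lists of companion genes. For most of them, only the number of calls that held in every refit is given. Over all tested genes, 20.1% were higher and 20.3% lower in rumen than in liver, and 29.4% were higher in liver than in forebrain. Of 7 electron donors of P450, 4 were lower in rumen than in liver, POR, CYB5A, CYB5R3 and FDX1, and none was higher, of which 1, CYB5A, held without each library in turn. POR, the reductase that serves all microsomal P450 enzymes, had 58.5 and 49.5 CPM in rumen, 120 and 172 CPM in liver and 77.7 and 86.6 CPM in forebrain, and the rumen and liver call (adjusted p 0.00652) was lost without Rumen 2 (0.0756). Of 10 tested sensors, 9 were higher in liver than in forebrain and 5 lower in rumen than in liver, of which 4 and 1 held without each library in turn. The xenobiotic receptor NR1I2 had no count in rumen, 7.15 and 15.5 CPM in liver and 0 and 0.144 CPM in forebrain, and the retinoid partner RXRA had 167 and 156 CPM in rumen, 199 and 316 CPM in liver and 10.7 and 11.9 CPM in forebrain. Of 17 tested other detoxification enzymes, 11 were lower in rumen than in liver and 1, TPMT, was higher, of which 7 and TPMT held in the same way. TPMT, which methylates thiopurines, had 225 and 187 CPM in rumen, 25.3 and 21.0 CPM in liver and 67.0 and 77.9 CPM in forebrain (log2 3.15 for rumen minus liver, adjusted p 0.00035). Of 7 tested carriers, 5 were lower in rumen than in liver, 3 of them in every refit. Among them was the bile acid carrier SLC10A1, with 0.0765 and 0 CPM in rumen, 67.1 and 59.2 CPM in liver and 0.407 and 0.361 CPM in forebrain.

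Neighbouring genes were enriched in the same tissue in a few groups and in different tissues in a few others, and most groups held no pair of enriched members. By gene order in RefSeq, 41 members lay in 15 groups with a member matched to another gene at most 3 places away. CYP2B6 and CYP2S1 were both enriched in rumen, and AKR1C3 and AKR1C4 both in liver. In the CYP2C group, CYP2C18 and CYP2C87 were enriched in rumen and CYP2C19 in liver. HSD17B13 was enriched in rumen next to HSD17B11 in liver, and of the 5 GSTA genes GSTA1 was enriched in liver and GSTA4 in forebrain. The enrichments of AKR1C3, CYP2C19, CYP2C87 and HSD17B11 rest on calls that were lost in refits, as given above. Reads may also be split among near-identical copies.

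The liver libraries differed from each other in the enzymes too. Over the 59 members with a mean of at least 10 CPM in liver, the SD of the log2 ratio of Liver 2 to Liver 1 was 1.15, against 0.372 over 49 members in rumen and 0.267 over 35 in forebrain. In Liver 2, 12 members were more than 2-fold higher and 6 more than 2-fold lower than in Liver 1. HSD17B14 had 13.5 and 15.3 CPM in rumen, 4.39 and 47.7 CPM in liver and 3.09 and 3.46 CPM in forebrain. ALDH6A1 and ADH4 were the members furthest in the other direction, at 46.4 and 4.24 CPM and at 30.4 and 4.75 CPM. Erythroid and macrophage marker sums were lower in Liver 2, and so was the hepatocyte sum (222224 CPM in Liver 1 and 192033 CPM in Liver 2). Marker sums also differed for endothelium (715 CPM in Liver 1 and 492 CPM in Liver 2) and mesothelium (14.4 and 33.6 CPM). The part of any cell type in the difference between the liver libraries was not tested.

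**Figure D5:**
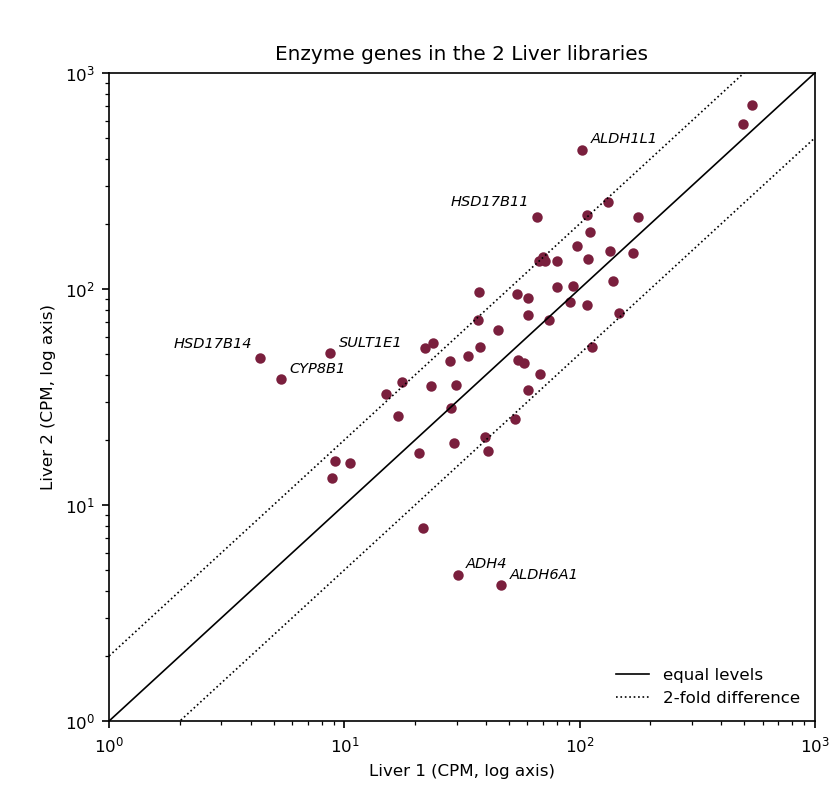
CPM in Liver 2 against Liver 1 on log axes for the 59 enzyme genes with a mean of at least 10 CPM in liver, with the line of equal levels and dotted lines at 2-fold. HSD17B14, CYP8B1 and SULT1E1 lie far above the line and ADH4 and ALDH6A1 far below it.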

How the data were processed

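The deposited table held whole-number read counts per gene symbol. The submitters' processing notes name HISAT2 2.0.5, featureCounts 1.5.0-p3 and edgeR 3.18.1. Neither build nor annotation is stated there, and no strand setting, so reads of overlapping genes cannot be told apart. Reads of near-identical paralogs cannot be told apart either. From the counts, edgeR 4.0.16 (R 4.3.3) computed trimmed-mean factors, removed low genes with filterByExpr, fitted all 6 libraries by tissue with glmQLFit (3 residual degrees of freedom), tested with glmQLFTest and adjusted p by Benjamini-Hochberg over the 11478 tested genes, with a threshold of 0.05. The pipeline was tested on simulated data. Depth is given by total counts; intervals and the floor of 3 counts cover counting error only. Of the members' symbols, 109 matched RefSeq (ARS-UCD2.0) symbols and 7 matched synonyms; it was used for names and gene order only. Members and gene lists were chosen with earlier results of these data known. Named were, by rule, the 10 largest changes in each direction and comparison, the member with the highest CPM in each family and tissue (a way of choosing, not a comparison of levels), hormone and sterol enzymes, isozymes with opposite calls, and the 5 members that differed most between the liver libraries; members outside it are named after their values were seen. A planned motif search was not run, and 1 member is not reported here. Alternatives were other scalings, no count filter, DESeq2 1.42.0, only the tissues compared, a replicate block and each library left out.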

Additional observations from a re-analysis of the deposited data

How the results depend on the processing

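Of 162 member calls, none changed sign under any alternative run, and 162 were called by DESeq2, 161 without the count filter, 160 and 158 with other scaling factors, 148 with library totals and 144 of 159 in fits of only the tissues compared. Library totals without a scaling factor gave 20 members higher in rumen than in liver. Fits of only the 2 tissues compared called 7159 genes between rumen and forebrain, 3568 higher and 3591 lower in rumen. Replicate numbers are shared by the tissues, and the deviations of same-numbered libraries correlated at -0.00177, -0.0585 and 0.0754. With 2 libraries a tissue, these values cannot show whether same-numbered libraries came from the same fetus. With the replicate block, 39, 43 and 65 members were called in the 3 comparisons, as were 4021, 3961 and 5767 genes, and 3 members were enriched in forebrain. Leaving out each library in turn, the members called ranged from 20 to 59 (higher 4 to 24, lower 16 to 41) for rumen and liver, 24 to 63 (19 to 45, 4 to 18) for rumen and forebrain, and 42 to 78 (34 to 58, 8 to 21) for liver and forebrain. Over all genes the ranges were 2271 to 6870 (1231 to 3391, 1013 to 3479), 1878 to 7140 (931 to 3482, 947 to 3659) and 3641 to 7817 (1877 to 4127, 1764 to 3810). Enriched members ranged from 2 to 8 in rumen, 14 to 26 in liver and 1 to 6 in forebrain. HSD17B14, not called in rumen minus liver (log2 fold change -0.86), was at -1.73 without Liver replicate 1 and 1.71 without Liver replicate 2, both past the threshold. The cause was not tested. With 2 libraries a tissue, refits that leave one out assume that the lone library varies like the others.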
